A study of Homo sapiens with 12 samples.

Results

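CXCL1, CXCL2, CXCL3, CXCL8 and CXCL10 are secreted CXC chemokines, chosen by name, and each symbol stood on 1 locus among the 38272 loci of the deposited table. FPKM counts sequenced fragments, scaled to the length of a locus and to the mapped fragments of its library. All 5 genes passed the filter on low values (1 FPKM or more in 3 or more libraries), as did 32866 loci in all. CXCL8 was at or above 1 FPKM in all 12 libraries, CXCL10 in 6 and CXCL1 in 7, of which 1 (SG replicate 1) had no TNF, so CXCL10 and CXCL1 passed the filter only through the TNF-treated libraries. The RNA came from K562, a human line grown from chronic myeloid leukaemia, cultured in RPMI medium with FCS, in 4 groups of 3 labelled biological replicates. The TNFSG group was transfected with Si623 (an siRNA) and Gap01 (a GapmeR), both directed at one long non-coding RNA, and then received tumour necrosis factor (TNF) at 20 ng/mL for 6 hours. A GapmeR is an antisense oligonucleotide that recruits RNase H to the RNA it pairs with. The TNF group received the mock transfection (SiCt and GapCt) and the same TNF treatment. The SG group received Si623 and Gap01 without TNF, and the control group the mock transfection without TNF. Every group was therefore transfected with an siRNA and a GapmeR, the reagents were given only together, and all cells were of 1 line.

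CXC chemokines attract leukocytes by binding G protein-coupled receptors on their surface. CXCL1, CXCL2, CXCL3 and CXCL8 carry the ELR motif before their first cysteines and draw neutrophils through CXCR2 (CXCL8 also through CXCR1), whereas CXCL10 lacks it and draws activated T cells and natural killer cells through CXCR3. TNF binding to its receptor frees NF-kB dimers from IkB proteins, and NF-kB binding at kappaB elements close to the start of these genes is known to drive their transcription. CXCL10 transcription is also known to respond to interferon through IRF and STAT factors.

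All 5 genes lie on chromosome 4 (GENCODE release 29, GRCh38). CXCL8 lies at chr4:73740506-73743716 and CXCL1 at chr4:73869393-73871242, both on the plus strand and 126 kb apart. CXCL3 lies at chr4:74036589-74038807 and CXCL2 at chr4:74097035-74099293, both on the minus strand and 58.2 kb apart. CXCL10 lies at chr4:76021117-76023497 on the minus strand, 1920 kb beyond CXCL2 and 10.2 kb from CXCL11. The deposited table gives no coordinates, so these are positions of the annotated genes.

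The 200 bases before each gene's RefSeq start (GRCh38.p14, read on the gene's own strand) are shown because each holds a match to a kappaB-like pattern. They are chr4:73740369-73740568 for CXCL8, chr4:73869193-73869392 for CXCL1, chr4:74038690-74038889 for CXCL3, chr4:74099196-74099395 for CXCL2 and chr4:76023498-76023697 for CXCL10. For CXCL8, CXCL3 and CXCL2 the RefSeq start lies inside the GENCODE span given above, so part of each window does too. Capitals mark each match to the kappaB-like pattern GGANNTTCC on either strand and to the TATA-like pattern TATAAA on either strand. The kappaB-like matches of CXCL3 and CXCL2 and the TATA-like match of CXCL8 lie inside those spans.
CXCL8: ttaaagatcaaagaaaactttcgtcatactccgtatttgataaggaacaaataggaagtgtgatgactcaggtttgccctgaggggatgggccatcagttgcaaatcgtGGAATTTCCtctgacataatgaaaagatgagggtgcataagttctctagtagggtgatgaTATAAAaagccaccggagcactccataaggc
CXCL1: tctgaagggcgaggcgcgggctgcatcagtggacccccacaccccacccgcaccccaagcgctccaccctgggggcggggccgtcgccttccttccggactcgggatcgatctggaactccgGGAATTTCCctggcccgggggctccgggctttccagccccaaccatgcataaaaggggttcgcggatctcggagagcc
CXCL3: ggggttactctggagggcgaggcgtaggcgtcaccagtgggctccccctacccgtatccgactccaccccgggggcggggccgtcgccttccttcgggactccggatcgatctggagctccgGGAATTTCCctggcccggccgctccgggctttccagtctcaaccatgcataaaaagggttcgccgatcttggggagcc
CXCL2: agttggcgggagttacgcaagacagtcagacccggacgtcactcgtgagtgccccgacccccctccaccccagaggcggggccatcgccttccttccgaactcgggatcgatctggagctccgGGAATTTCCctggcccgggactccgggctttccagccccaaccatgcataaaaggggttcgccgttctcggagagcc
CXCL10: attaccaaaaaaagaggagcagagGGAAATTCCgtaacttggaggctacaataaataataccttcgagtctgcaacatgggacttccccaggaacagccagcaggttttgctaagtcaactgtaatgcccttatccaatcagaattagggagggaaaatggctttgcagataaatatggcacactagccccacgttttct

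In the 250 bases before the start, the kappaB-like pattern was found in 5 of the 5 genes and in 3.84% of the 35116 promoters of the same length in the RefSeq table. In CXCL1, CXCL2, CXCL3 and CXCL8 the matched letters were the same, GGAATTTCC, starting at position -78 in CXCL1 and CXCL3, -77 in CXCL2 and -91 in CXCL8, counted backwards from -1 at the base before the start. In CXCL10 the match was GGAAATTCC and started at position -176. The CXCL1 and CXCL3 windows were 81.4% identical when aligned end to end, CXCL2 was 70.1% and 73.4% identical to them, and the remaining pairs lay between 41.9% and 52.7%. The AP-1-like pattern TGANTCA was found in CXCL8 alone of the 5, at -137, and in 6.57% of promoters. TATAAA was also found in CXCL8 alone, at -31, and in 10.7% of promoters. The ISRE-like pattern GAAANNGAA was found in CXCL2, CXCL3 and CXCL10 and in 6.88% of promoters, and the CEBP-like pattern TTGCNNAA in CXCL2 and in 9.05%. Both strands were searched, and 0 of the 11 matches overlapped another. A match describes the letters and was not tested as a binding site or as a cause of the TNF response. Each pattern is 1 fixed set of letters and can miss other forms of the element. The CXCL1, CXCL2 and CXCL3 matches lie in similar windows, so the 5 kappaB-like matches are not independent.

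The 12 libraries had FPKM sums between 925955 and 1083476, and relative depths, read from the steps of low values, between 0.863 (control replicate 3) and 1.32 (TNFSG replicate 1). The total number of reads was not in the table. The 10 erythroid markers of K562 stood on 9 loci, since HBE1 and HBG2 share 1, and each locus averaged at least 1 FPKM over the 12 libraries. Their summed levels were 2060 to 4124 FPKM in TNFSG, 2146 to 5042 FPKM in TNF, 2220 to 4381 FPKM in SG and 2221 to 5268 FPKM in control libraries. The locus named MIR146A, read here as that of the targeted RNA from the series title, lay at 7.77, 4.51 and 4.03 FPKM in TNFSG libraries, against 28.1, 25.6 and 21.2 FPKM in TNF libraries. It lay at 0, 0.0566 and 0.0630 FPKM in SG libraries, against 0.360, 0.569 and 0.159 FPKM in control libraries. Its lower level in TNFSG than in TNF (log2 change -2.05, limma adjusted p 0.0191) held without TNFSG replicate 1 but was lost on leaving out any of the other 5 libraries, with adjusted p up to 0.0831. It was also lost when these 2 groups were fitted alone (0.214) and with a pseudocount of 0.1 (0.0968).

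CXCL8, the neutrophil chemokine also known as interleukin-8, was the most abundant of the 5 per kilobase in every library. It stood at 147, 131 and 137 FPKM in TNF libraries, against 11.9, 11.4 and 10.5 FPKM in control libraries. After the targeted transfection it stood at 124.2, 120.7 and 124.2 FPKM in TNFSG libraries, against 11.3, 10.5 and 8.61 FPKM in SG libraries. Every TNF-treated library thus stood far above every untreated one, and the replicates lay close together. Its means were 12.3 times as high in TNF as in control and 12.1 times as high in TNFSG as in SG. On the log2(FPKM + 1) scale the change was 3.51 ± 0.09 (SE) for TNF against control and 3.48 ± 0.09 for TNFSG against SG, with limma adjusted p values of 1.29e-07 and 1.81e-07.

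CXCL1, the first of the GRO chemokines, was at 34.1, 30.6 and 32.8 FPKM in TNF libraries, against 0.524, 0.923 and 0.666 FPKM in control libraries. In the targeted cells it was at 50.5, 42.7 and 59.0 FPKM in TNFSG libraries, against 1.08, 0.724 and 0.600 FPKM in SG libraries. The TNF-treated libraries stood far above the untreated ones in both transfections. The means differed 46.2-fold and 63.4-fold in these 2 comparisons. The changes were 4.30 ± 0.15 and 4.84 ± 0.15 (log2, SE), with limma adjusted p values of 7.47e-07 and 2.94e-07.

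CXCL2 and CXCL3, the other two GRO chemokines, reached lower levels. CXCL2 was at 14.7, 7.09 and 9.10 FPKM in TNF libraries, against 1.08, 0.755 and 1.31 FPKM in control libraries. It was at 11.9, 10.3 and 11.1 FPKM in TNFSG libraries, against 1.17, 1.17 and 0.780 FPKM in SG libraries. TNF replicate 1 stood apart from the other two TNF libraries, and the coefficient of variation of CXCL2 in TNF was 38.5%, against 5.37% for CXCL1 and 5.73% for CXCL8 in the same libraries. The rise of CXCL2 was 2.42 ± 0.23 in TNF against control (limma adjusted p 0.000553) and 2.57 ± 0.23 in TNFSG against SG (0.000360). Fitted on the TNF and control libraries alone, the call of CXCL2 in TNF against control was lost, with a limma adjusted p of 0.0502. CXCL3 was at 14.9, 17.0 and 16.4 FPKM in TNF libraries, against 1.47, 1.58 and 1.54 FPKM in control libraries. It was at 13.7, 15.7 and 13.1 FPKM in TNFSG libraries, against 0.451, 1.09 and 1.43 FPKM in SG libraries. Its untreated values were tight in control (coefficient of variation 3.62%) and scattered in SG (50.2%). CXCL3 rose by 2.76 ± 0.18 in TNF against control and by 2.95 ± 0.18 in TNFSG against SG, with limma adjusted p values of 4.33e-05 and 2.73e-05.

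CXCL10, the chemokine of the 5 without the ELR motif, was at 35.3, 31.7 and 26.3 FPKM in TNF libraries, against 0.140, 0.448 and 0.222 FPKM in control libraries. It was at 38.2, 26.8 and 24.0 FPKM in TNFSG libraries, against 0.0873, 0.589 and 0.0703 FPKM in SG libraries. This was the lowest baseline of the 5 genes and the widest ratio of means, 115-fold for TNF against control and 119-fold for TNFSG against SG. Its values stepped in whole reads in all 12 libraries, within 0.05 reads. They stood for 1031, 829 and 625 reads in TNF libraries, against 4, 12 and 5 reads in control libraries. They stood for 1318, 639 and 602 reads in TNFSG libraries, against 2, 14 and 2 reads in SG libraries. An exact 95% Poisson interval on 2 reads spans 0.242 to 7.22 reads, so counting error alone is wide at baseline, and the intervals cover counting error only. CXCL10 rose by 4.66 ± 0.22 in TNF against control and by 4.62 ± 0.22 in TNFSG against SG, at limma adjusted p of 6.38e-06 and 5.96e-06. Both log2 changes depend on the pseudocount, and with 0.1 FPKM in place of 1 they were 6.47 and 6.70.

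**Figure D1:**
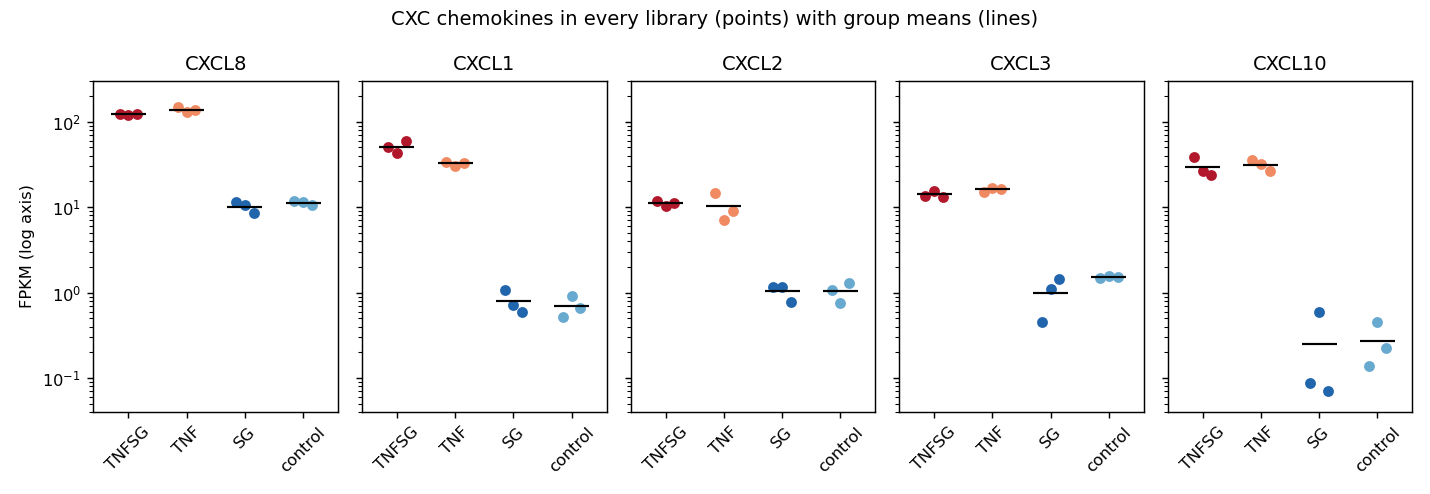
FPKM of CXCL8, CXCL1, CXCL2, CXCL3 and CXCL10 on a shared log axis, with each library as a point and the mean of 3 libraries as a line, for the TNFSG, TNF, SG and control groups from left to right. All TNFSG and TNF points lie above all SG and control points in each panel, from CXCL8 at 120.7 FPKM or more down to CXCL2 at 7.09 FPKM or more.

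In TNF against control 5 of 5 members rose by limma, where 1.18% of all loci tested rose, and in TNFSG against SG 5 of 5 rose, where 1.37% did. The median change over the members was 3.51 in TNF against control and 3.48 in TNFSG against SG, beside -0.02 and -0.03 over all loci tested. All 5 genes had every TNF library above every control library, as did 7.59% of loci, and every TNFSG library above every SG library, as did 8.13%. Nothing is read from the members' counts against these shares, since the members were chosen with results known and CXCL1 and CXCL10 passed the filter only where they are high. The 2 comparisons hold different libraries but were estimated in 1 fit, which gives them the same error. Ranked by change in log2(FPKM + 1) among 32866 loci, CXCL10 stood at 25 and CXCL1 at 38 in TNF against control, and CXCL1 at 32 and CXCL10 at 41 in TNFSG against SG. CXCL8 stood at 95 and 97, CXCL3 at 193 and 170, and CXCL2 at 256 and 253 in these 2 comparisons. These places depend on the pseudocount: with 0.1 FPKM the change in TNFSG against SG was 6.70 for CXCL10 and 5.84 for CXCL1, and 3.82 for CXCL3 and 3.59 for CXCL8, so that both orders turned. Leaving out any 1 of the 6 libraries of a comparison kept all 5 rises in both comparisons, the highest limma adjusted p being 0.00416. In RNA from whole cultures, more cells with the transcript and more transcript per cell cannot be told apart.

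Reads of 50 bases can fall on more than 1 GRO gene. Of the stretches of 50 bases in the annotated transcripts, 12.5% of those of CXCL2, 6.01% of those of CXCL3 and 4.81% of those of CXCL1 occur identically in another of these 3 genes, while 0% of those of CXCL8 and CXCL10 occur in another gene. How the authors' software divided such reads is not given in the sources used here, and the levels of CXCL1, CXCL2 and CXCL3 are uncertain to that extent. In none of CXCL1, CXCL2 and CXCL3 did the values step in whole reads within 0.05 reads. For CXCL8 no step was found either, but the search tried only small read numbers for the lowest library. CXCL8 stood at 8.61 FPKM or more in every library, so the search could not decide whether its values step in whole reads. No read numbers are given for these genes.

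The order of the genes by level per kilobase differed with TNF. In TNFSG libraries the order was CXCL8, CXCL1 (42.7 to 59.0 FPKM), CXCL10 (24.0 to 38.2 FPKM), CXCL3 (13.1 to 15.7 FPKM) and CXCL2 (10.3 to 11.9 FPKM), and no neighbours overlapped. In TNF libraries CXCL1 (30.6 to 34.1 FPKM) and CXCL10 (26.3 to 35.3 FPKM) overlapped, and CXCL3 (14.9 to 17.0 FPKM) lay just above CXCL2 (7.09 to 14.7 FPKM). In SG libraries CXCL2, CXCL3 and CXCL1 overlapped one another between 0.451 and 1.43 FPKM, and the highest CXCL10 value (0.589 FPKM) reached into the range of CXCL3. In control libraries CXCL3 (1.47 to 1.58 FPKM) lay above CXCL2 (0.755 to 1.31 FPKM), which overlapped CXCL1 (0.524 to 0.923 FPKM), and CXCL10 was lowest. CXCL8 led in every group.

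The 5 genes together summed to 216 to 238 FPKM in TNFSG libraries, 218 to 246 FPKM in TNF libraries, 11.5 to 14.1 FPKM in SG libraries and 14.2 to 15.1 FPKM in control libraries. CXCL8 held 52.1% to 55.8% of that sum in TNFSG, 59.7% to 61.7% in TNF, 74.6% to 80.3% in SG and 73.7% to 78.7% in control libraries. CXCL1 held 19.7% to 25.5% in TNFSG, 13.9% to 14.8% in TNF, 5.13% to 7.61% in SG and 3.47% to 6.13% in control libraries. CXCL10 held 10.4% to 16.0% in TNFSG, 11.9% to 14.6% in TNF, 0.612% to 4.18% in SG and 0.927% to 2.98% in control libraries. The shares of CXCL1 and CXCL10 were thus higher, and that of CXCL8 lower, in every library with TNF than in any without. The ratio of CXCL8 to CXCL1 was 2.46, 2.83 and 2.10 in TNFSG libraries, against 4.31, 4.29 and 4.17 in TNF libraries. These ratios are given without a test.

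**Figure D2:**
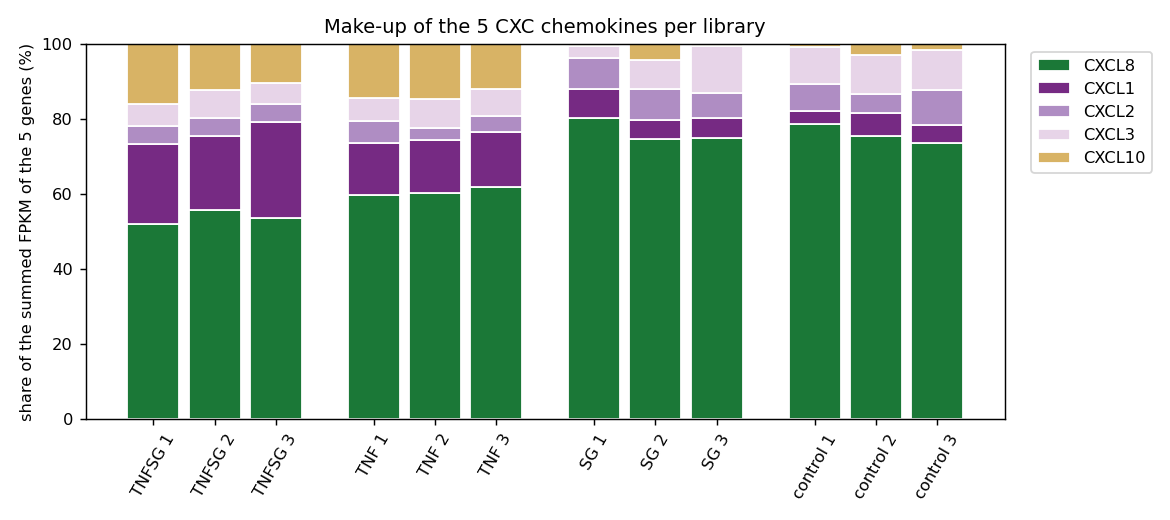
Share of each gene in the summed FPKM of the 5 genes, as stacked bars from 0 to 100%, 1 bar per library, for the TNFSG, TNF, SG and control groups from left to right. CXCL8 takes 52.1% to 61.7% of the sum in libraries with TNF and 73.7% or more in those without.

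The comparison of TNFSG with TNF asks whether the siRNA and GapmeR against the long non-coding RNA altered chemokine levels under TNF. By limma 0 of 5 members passed, where 0.128% of all loci did, and 1 of 5, CXCL1, had an unadjusted p under 0.05, as did 9.11% of loci. CXCL1 averaged 50.7 ± 8.19 FPKM in TNFSG and 32.5 ± 1.74 FPKM in TNF (SD, n = 3 each), a ratio of 1.56, and its libraries did not overlap. The difference was 0.62 (log2, 95% interval 0.28 to 0.95) with an unadjusted limma p of 0.00232 and an adjusted p of 0.242, which ran from 0.135 to 0.509 over the alternatives. TNFSG libraries lay wholly above TNF libraries for 10.0% of all loci tested, and the median change over all loci was 0.08. CXCL8 averaged 123 ± 2.02 FPKM in TNFSG and 138 ± 7.93 FPKM in TNF, and all 3 TNFSG values lay below all 3 TNF values, a pattern of 4.73% of loci. Its difference was -0.17 (95% interval -0.38 to 0.05), with a limma adjusted p of 0.652. The differences of CXCL2, CXCL3 and CXCL10 were 0.15 (-0.36 to 0.67), -0.18 (-0.58 to 0.22) and -0.08 (-0.58 to 0.41), with overlapping libraries and limma adjusted p values of 0.830 or more. These intervals do not show equal levels.

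The comparison of SG with control asks the same without TNF. By limma 0 of 5 members passed, where 0.170% of all loci did, and 0 of 5 had an unadjusted p under 0.05, as did 9.86% of loci. CXCL3 averaged 0.992 ± 0.498 FPKM in SG and 1.53 ± 0.0553 FPKM in control (SD, n = 3 each), with all 3 SG values below all 3 control values, a pattern of 4.62% of loci. Its difference was -0.38 (log2, 95% interval -0.77 to 0.02), with a limma adjusted p of 0.529, and without SG replicate 1 (0.451 FPKM) it was -0.16. CXCL8 differed by -0.14 (-0.35 to 0.07), CXCL1 by 0.08 (-0.26 to 0.41), CXCL2 by 0.00 (-0.52 to 0.51) and CXCL10 by -0.04 (-0.53 to 0.45), with limma adjusted p values of 0.692 or more. The CXCL10 values rest on 2 to 14 reads in SG and 4 to 12 reads in control. Its interval uses the spread within groups over all 12 libraries, those with TNF included. TNFSG against TNF, SG against control and the TNF comparisons share libraries pairwise, so their values are set side by side only.

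Whether the TNF response itself differed between the transfections was tested as the interaction, the change in TNFSG against SG minus that in TNF against control. By limma 0 of 5 members passed, where 0.00913% of all loci (3 loci) did, and 1 of 5 had an unadjusted p under 0.05, as did 3.75% of loci. CXCL1 had an interaction of 0.54 (log2, 95% interval 0.06 to 1.01), with an unadjusted limma p of 0.0300 and an adjusted p of 1.00. For CXCL8 the interaction was -0.03 (-0.33 to 0.27), the narrowest interval of the 5. For CXCL2, CXCL3 and CXCL10 it was 0.15 (-0.58 to 0.88), 0.20 (-0.36 to 0.76) and -0.04 (-0.74 to 0.65).

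**Figure D3:**
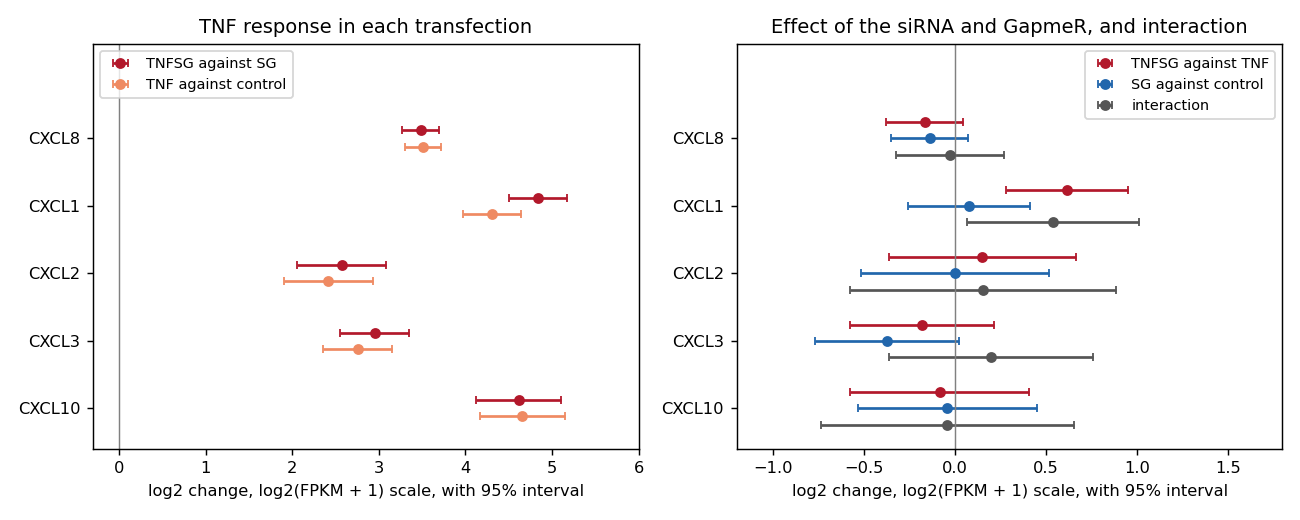
Log2 change of each gene on the log2(FPKM + 1) scale with its 95% limma interval, for the TNF responses (left) and for the effect of the siRNA and GapmeR and the interaction (right). The TNF responses lie between 2.42 and 4.84, and the intervals on the right span 0 except those of CXCL1 in TNFSG against TNF and in the interaction.

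Of 12 other CXC chemokines on the list, 3 were in the table, and CXCL11 rose in both TNF comparisons (median changes of the 3 were 0.13 in TNF against control and 0.90 in TNFSG against SG). CXCL11, like CXCL10 a ligand of CXCR3, was at 10.5, 9.28 and 6.87 FPKM in TNF libraries, against 0.179, 0 and 0 FPKM in control libraries. It was at 27.0, 28.8 and 5.61 FPKM in TNFSG libraries, against 0, 0 and 0.360 FPKM in SG libraries. TNFSG replicate 3 stood below the other two TNFSG libraries and below every TNF library, whereas CXCL10 in the same library was at 24.0 FPKM. The change of CXCL11 was 3.21 ± 0.50 in TNF against control (limma adjusted p 0.0110) and 3.99 ± 0.50 in TNFSG against SG (0.00290). The call in TNF against control was lost without control replicate 2, control replicate 3 or TNF replicate 1, with adjusted p values of 0.0526, 0.0530 and 0.0533. The call in TNFSG against SG was lost in the fit of these 2 groups alone (0.0813). CXCL14 and CXCL16, which were in the table as well, averaged 568 and 1.95 FPKM in TNF, against 518 and 1.71 FPKM in control, and passed in no comparison. CXCL16 averaged 3.87 FPKM in TNFSG, against 1.69 FPKM in SG (limma adjusted p 0.218), and lay in TNFSG wholly above TNF (0.503).

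Of 31 CC, C and CX3C chemokines on the list, 10 were in the table and tested. In each TNF comparison 2 rose, where 1.18% and 1.37% of all loci tested rose, with median changes of -0.07 and 0.88. CCL2, a monocyte attractant, was at 17.5, 12.9 and 6.31 FPKM in TNF libraries, against 1.56, 1.61 and 1.68 FPKM in control libraries. It was at 19.9, 16.6 and 9.81 FPKM in TNFSG libraries, against 2.40, 1.60 and 0.847 FPKM in SG libraries. No library with TNF overlapped one without. The change of CCL2 was 2.24 ± 0.37 in TNF against control (limma adjusted p 0.0157, lost in 5 of 6 fits that left out a library, all but that without TNF replicate 3, with values up to 0.0664) and 2.64 ± 0.37 in TNFSG against SG (0.00577). Fitted on the compared groups alone, both calls of CCL2 were lost (0.112 and 0.0525). CCL4L1, a near-identical copy of CCL4 whose reads may be shared with it, averaged 4.11 FPKM in TNF, against 0.210 FPKM in control, and 6.36 FPKM in TNFSG, against 0.325 FPKM in SG. Its calls (0.0235 and 0.0111) were lost in 5 of 6 and 2 of 6 such fits, with adjusted p values up to 0.106 and 0.0580. The first held only without control replicate 1, and the second failed without SG replicate 2 or TNFSG replicate 1 and in the fit of these 2 groups alone (0.130). CCL5, named after its values were seen, averaged 60.7 FPKM in TNF, against 4.36 FPKM in control (limma adjusted p 0.0542), and 44.5 FPKM in TNFSG, against 2.78 FPKM in SG (0.0511). Of 23 chemokine receptors 5 were in the table and 0 passed by limma in any comparison, nor did any have an unadjusted p under 0.05. CXCR2, the receptor of the ELR chemokines, ranged from 2.42 to 13.3 FPKM in TNFSG, from 0 to 10.5 FPKM in TNF, from 3.64 to 12.3 FPKM in SG and from 11.1 to 13.1 FPKM in control libraries.

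Of 11 NF-kB subunits and IkB proteins 8 rose in TNF against control and 9 in TNFSG against SG, with median changes of 0.94 and 1.15. Of all loci tested 1.18% and 1.37% rose in these comparisons, shares that also stand beside the lists that follow. NFKBIA, the IkB protein that returns NF-kB to the cytoplasm, rose by 3.56 ± 0.10 and 3.43 ± 0.10, and its level was 12.7 and 11.5 times as high with TNF. RELB rose by 3.81 ± 0.21 and 3.66 ± 0.21, BCL3 by 3.20 ± 0.17 and 2.93 ± 0.17, and NFKB1, the p50 precursor, reached levels 4.50 and 4.91 times as high. NFKBID, which passed in TNFSG against SG alone (limma adjusted p 0.0216), was lost in 4 of 6 fits that left out a library, with values up to 0.0933, and in the fit of these 2 groups alone (0.135), and its interaction did not pass. REL lost its call in 1 of 9 alternatives in both comparisons (limma adjusted p up to 0.0734 and 0.0908), and NFKBIE in 1 of 9 in TNF against control (0.0549). RELA, a transactivating subunit named after its values were seen, did not pass. It averaged 34.0 ± 2.03 FPKM in TNF and 26.4 ± 1.57 FPKM in control (SD, n = 3 each), with a limma adjusted p of 0.0570. In TNFSG it averaged 35.2 FPKM, against 28.3 FPKM in SG (limma adjusted p 0.0979). Of 14 tested interferon pathway factors 3 rose with TNF in each comparison and 1 fell in TNFSG against SG, with medians of 0.52 and 0.34. IRF1, a factor known to act on CXCL10, rose by 1.58 ± 0.13 and 1.64 ± 0.13, IRF2 by 1.17 ± 0.10 and 0.97 ± 0.10, and IFNGR2, a chain of the interferon gamma receptor, by 1.82 ± 0.08 and 1.77 ± 0.08. STAT3 fell by 0.36 in TNFSG against SG (limma adjusted p 0.0287), a call lost whichever of the 6 libraries was left out, with values up to 0.128. A further list held 16 tested regulators of mRNA decay, chosen because these chemokine transcripts are AU-rich. Not all of them act through AU-rich elements. ZC3H12A alone passed, and the medians were 0.02 and 0.01. It encodes an RNase and rose by 1.13 ± 0.13 in both comparisons (limma adjusted p 0.00229 and 0.00231), and the first call was lost in the fit of its 2 groups alone (0.0924). ZFP36, which binds AU-rich elements, changed by 0.56 ± 0.30 and 0.60 ± 0.30 and did not pass. Of the 59 tested members of these 6 lists 0 passed by limma in SG against control, TNFSG against TNF or the interaction. Of all loci tested 0.170%, 0.128% and 0.00913% passed. An unadjusted limma p under 0.05 was found for 5, 3 and 1 of the 59, and for 9.86%, 9.11% and 3.75% of all loci. Nothing is read from these counts.

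**Figure D4:**
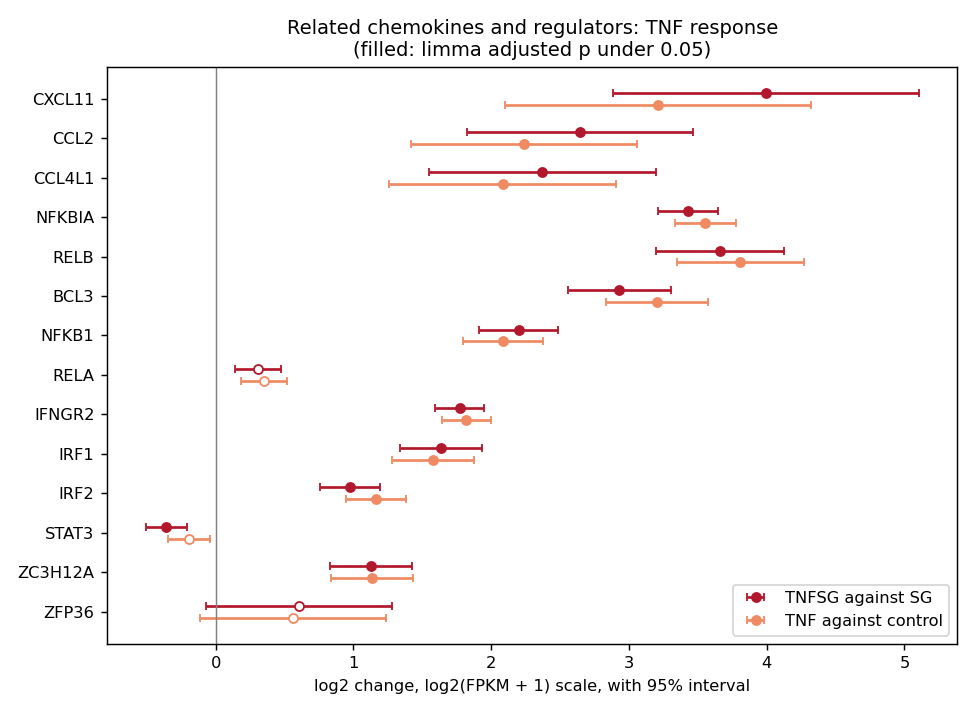
Log2 change under TNF of related chemokines and regulators on the log2(FPKM + 1) scale with 95% limma intervals, for TNFSG against SG and TNF against control. Filled points passed a limma adjusted p of 0.05, and those of RELA and ZFP36 are open in both comparisons.

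Markers of other cell types were read beside these results. Of 7 monocyte or macrophage markers 4 were in the table, with summed levels of 427 to 511 FPKM in TNFSG, 587 to 950 FPKM in TNF, 33.4 to 691 FPKM in SG and 282 to 489 FPKM in control libraries. The sums of TNF libraries thus lay above those of control libraries, while those of TNFSG and SG libraries overlapped. CD163 made up most of the sums in TNF and control libraries. CD163 had 559, 932 and 577 FPKM in TNF libraries, against 243, 466 and 427 FPKM in control libraries, and its lowest value was 8.86 FPKM in SG replicate 2. The limma adjusted p of CD163 in TNF against control was 0.889. The other monocyte loci had lower means in TNF, with overlapping libraries. CD14, LYZ and ITGAM averaged 6.67, 16.8 and 0.682 FPKM in TNF, against 8.23, 20.3 and 0.888 FPKM in control. Of 6 fibroblast markers 3 were in the table, with sums of 65.2 to 444 FPKM in TNFSG, 55.1 to 1178 FPKM in TNF, 21.4 to 45.3 FPKM in SG and 23.9 to 56.3 FPKM in control libraries, so that TNFSG lay above SG while TNF and control overlapped. COL1A2 had 1098, 127 and 2.60 FPKM in TNF libraries, against 2.04, 0 and 1.36 FPKM in control libraries. It had 3.67, 406 and 3.85 FPKM in TNFSG libraries, against 6.39, 3.12 and 3.79 FPKM in SG libraries, so single libraries carried the highest sums. Neutrophil, lymphoid, epithelial and endothelial sums overlapped in TNF and control, and epithelial sums were lower in TNFSG (164 to 174 FPKM) than in SG (180 to 222 FPKM). The erythroid factor KLF1 averaged 63.2 FPKM in TNF, against 93.9 FPKM in control (limma adjusted p 0.133), and 54.5 FPKM in TNFSG, against 87.3 FPKM in SG (0.0597). EPOR, the erythropoietin receptor, averaged 4.13 FPKM in TNF, against 6.39 FPKM in control (limma adjusted p 0.254), and 4.13 FPKM in TNFSG, against 7.75 FPKM in SG (0.0736). Both were lower with TNF without overlap in both comparisons. They passed in 2 of 9 alternatives in TNFSG against SG, as KLF1 did in 1 of 9 in TNF against control. They were picked from the 9 K562 loci, whose median changes were -0.14 and -0.05. GATA1 was also lower without overlap in both comparisons. HBZ changed by 0.02 and -0.04, ALAS2 by -0.05 and -0.05, and HBG1 by -0.81 and 0.39. The share of all loci lower without overlap is not given here, so nothing is read from that pattern. Of 25 tested marker loci, those of K562 included, 0 passed by limma in any comparison. An unadjusted limma p under 0.05 was found for 4 in TNF against control and 3 in TNFSG against SG. The share of all loci at that threshold is not given here for these comparisons, so nothing is read from the counts. The part of these markers in the chemokine values was not tested.

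For each gene the 3 named loci with the most similar pattern were taken by the distance between their differences of group means from control (TNF, SG and TNFSG; log2(FPKM + 1)), among 20702 loci with at least 2 FPKM in a group. For CXCL8 they included CD69 (distance 0.30) and NFKBIA (0.35). For CXCL1 they were ICAM1 (0.44), RRAD (0.56) and CD83 (0.90), and for CXCL10 they were ICAM1 (0.29), LTB (0.61) and RRAD (0.70). For CXCL2 they were TIFA (0.07) and both loci named CYP3A5 (0.15 and 0.17), nearer than any locus found for the other members. For CXCL3 they were RP11-356I2.4 (0.35), TNF itself (0.39) and TTLL10 (0.43). The TNF gene averaged 5.71 FPKM in TNFSG, 5.55 FPKM in TNF, 0.0216 FPKM in SG and 0.0345 FPKM in control libraries. The distances rest on 4 group means that share the control libraries and are a description. They also depend on the pseudocount, which shrinks changes from low levels, and no other pseudocount was tried for them. TTLL10 averaged 7.60 FPKM in TNF and 0.0326 FPKM in control, while CXCL3 averaged 16.1 and 1.53 FPKM. The ratios of TTLL10 and the TNF gene to control were thus far wider than that of CXCL3.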

How the data were processed

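RNA of 12 K562 libraries was read in single 50-base reads, per the labels' protocols. The submitters' processing notes name Bowtie2 (2.2.9), TopHat2 (2.0.14), Cufflinks and hg38, with no Cufflinks version or annotation. The authors deposited FPKM values, 1 column per library, with no further scaling stated.

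Here limma 3.58.1 (R 4.3.3) was fitted to log2(FPKM + 1), which understates changes of low genes. Loci that reached 1 FPKM in fewer than 3 libraries were dropped. The fit had 1 mean per group over all 12 libraries and eBayes with trend. Tests were two-sided and adjusted by Benjamini-Hochberg over 32866 loci (threshold 0.05), and the code was tested on simulated data. The p values measure the spread between libraries labelled biological replicates. Relative depth was read from the steps of low values. Sequences came from RefSeq and transcripts from GENCODE release 29. Python 3.11.15, numpy 2.4.6, pandas 2.3.3, scipy 1.17.1, Biopython 1.88 and matplotlib 3.10.9 were used.

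The members and lists were chosen with earlier results of these data known. Named were all members, up to 4 passing genes per list, the 3 nearest loci per member (1 of those of CXCL8 is not reported here) and MIR146A. RELA, ZFP36, CXCL14, CXCL16, CXCR2, CCL5, NFKBID, REL, NFKBIE, KLF1, EPOR, ALAS2, COL1A2, CD14 and CD163 were named after their values were seen. So were GATA1, HBZ, HBG1, LYZ and ITGAM. The alternatives covered a block for the replicate number, other pseudocounts (0.1 and 0.5), other filters (none, or 5 FPKM), scaling by median ratios or quantiles, a fit without trend, a fit of the compared groups alone, and each library left out in turn.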

Additional observations from a re-analysis of the deposited data

How the results depend on the processing

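The 5 rises in TNF against control and the 5 in TNFSG against SG kept their direction in every alternative run and every leave-one-out fit. They kept their call too, except CXCL2 in TNF against control when only those 2 groups were fitted (limma adjusted p 0.0502, log2 change 2.42), where fewer libraries entered the fit. No member passed in the other 3 comparisons under any setting. Same-numbered libraries had positive correlations of their deviations in all 18 pairs (r from 0.00651 to 0.138), and 7 of 12 correlated best with their own number. The median r was 0.0225 for the same number and -0.0165 for different numbers (-0.0932 to 0.0425). The library titles also carry the letters A, B and C for replicates 1, 2 and 3, without saying what they stand for. The main fit left the number out because not every pair exceeded 0.1, a cut chosen for this report. That cut does not show that the samples are unpaired, and some loci went with the number. ALAS2 was at 44.8, 70.1 and 101 FPKM in TNFSG, 42.4, 74.3 and 105 FPKM in TNF, 48.8, 70.2 and 102 FPKM in SG, and 46.5, 76.9 and 102 FPKM in control replicates 1, 2 and 3. With a replicate block the loci called were 831 in TNF against control (478 without it) and 843 in TNFSG against SG (540), and the calls of the members were the same. Over all loci, fitting only the compared groups called 172 in TNF against control, 256 in TNFSG against SG, 7 in SG against control and 2 in TNFSG against TNF. SG against control had 56 called loci, 115 with the filter at 5 FPKM and 16 without trend. TNFSG against TNF had 42, 97 with that filter, 78 with median-ratio scaling and 18 without trend, and the interaction had 3, or 12 with a pseudocount of 0.1. Leaving out each library gave 294 to 432, 311 to 364, 10 to 29, 7 to 18 and 1 to 6 called loci in TNF against control, TNFSG against SG, SG against control, TNFSG against TNF and the interaction. The causes of these shifts were not tested.

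Small uncalled differences changed sign. In SG against control CXCL2 was 0.0005407 with a pseudocount of 0.1 and CXCL1 was -0.04519 after quantile normalization. In the interaction CXCL10 was 0.2274 and 0.001847 with pseudocounts of 0.1 and 0.5, and CXCL8 was 0.05680 after quantile normalization. Leaving out libraries gave SG against control ranges of -0.03080 to 0.1670 for CXCL1, -0.1089 to 0.09407 for CXCL2 and -0.2280 to 0.05733 for CXCL10. In TNFSG against TNF the ranges were -0.06246 to 0.4175 for CXCL2 and -0.2755 to 0.04992 for CXCL10. In the interaction they were -0.06055 to 0.4195 for CXCL2, -0.01562 to 0.3564 for CXCL3, -0.1316 to 0.04959 for CXCL8 and -0.2339 to 0.1438 for CXCL10. The cause was not tested. The depth in reads is unknown outside loci whose values step in whole reads, which limits what can be said of CXCL1, CXCL2 and CXCL3 near 1 FPKM.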
